A study of Mus musculus with 4 samples.

Results

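The respiratory chain genes described here were the nuclear genes for the 5 complexes of mitochondrial oxidative phosphorylation, chosen by symbol: those starting with Ndufa, Ndufb, Ndufc, Ndufs or Ndufv (complex I), Sdha to Sdhd (complex II), Uqcr (complex III), Cox4 to Cox8 (complex IV) and Atp5 (complex V). They numbered 90 of the 18193 genes with a probe set of their own on the arrays. Complex I had 36 genes, complex II 4, complex III 8, complex IV 17 and complex V 17, and the remaining 8 were assembly factors of complex I, Ndufaf1 to Ndufaf8, which the Ndufa rule also takes. Each gene was read from the brightest of its probe sets. All 90 matched a RefSeq gene of the same symbol, and 81 lay above a floor of 48.3, the median of all intensities, on each of the 4 arrays.

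RNA was measured on 1 Affymetrix array each in 4 mouse bone marrow cell samples, all started from lineage-negative, Sca-1-positive, c-kit-positive (LSK) cells, the marrow fraction that holds the blood stem cells. A day 3 sample carried a β-catenin retrovirus and its control an enhanced green fluorescent protein (eGFP) retrovirus. The other two, called DKmix, were LSK cells with the β-catenin retrovirus kept in culture to day 50 and to day 300. All were grown with serum and 4 cytokines (IL-3, IL-11, SCF and Flt3 ligand), and the labels give no mouse strain or age. The series asks through which genes β-catenin, the effector of Wnt signalling, immortalizes haematopoietic stem cells. Single arrays stood for each group, so there was no replicate and no test, and no p-value is given.

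In the respiratory chain, complexes I and II pass electrons from NADH and succinate to ubiquinone, complex III passes them on to cytochrome c and complex IV to oxygen. Complexes I, III and IV pump protons across the inner mitochondrial membrane as they do so, and complex V, the ATP synthase, makes ATP from their return. Blood stem cells are known for resting on glycolysis more than their progeny do, and respiration for increasing as they differentiate. In each complex a core of subunits carries the redox centres or the catalytic sites, and many small accessory subunits surround it. Here 16 nuclear core subunits of complexes I, II, III and V were set against 66 other subunits. That list was not drawn strictly by redox centre or catalytic site. It holds Uqcrc1 and Uqcrc2, the so-called core proteins of complex III, and leaves out its cytochrome, Cyc1. The core of complex IV, like part of that of complexes I, III and V, is encoded in mitochondrial DNA, and those genes were not analysed here. Nor were Ndufs6, Ndufa11 and Cox7b, for which no single-symbol probe set was in the table given.

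Error could be judged only from genes read by more than 1 probe set, as the SD of a single probe set's log2 ratio around its gene. Over members with 2 probe sets it was 0.38 for β-catenin over eGFP at day 3, 0.60 for DKmix day 50 over β-catenin day 3, 0.50 for DKmix day 300 over β-catenin day 3 and 0.84 for DKmix day 300 over day 50. Over all genes it was 0.64, 0.81, 0.64 and 0.91. A gene was counted as higher or lower from a 2-fold difference, a log2 ratio of 1, so many single counts lie within 2 SD of 0. The arrays also differed in RNA or labelling quality. The ratio of the 3′ to the 5′ probe set of Gapdh was 1.18 for the β-catenin and 4.14 for the eGFP array of day 3, and 4.96 at day 50 and 1.06 at day 300 in DKmix cells, and for β-actin it was 1.32, 1.83, 3.41 and 1.20 in the same order. For the transferrin receptor it was 2.92, 2.29, 12.3 and 3.05, and for pyruvate carboxylase 0.32, 0.17, 1.28 and 2.90, so the arrays were not ordered alike by all 4 transcripts. A ratio near 1 means that the far end of the transcript was read as well as the near end. Cell makeup differed too. The summed intensity of 9 mast cell genes was 4355, 913.4, 154299 and 63567 on the 4 arrays in that order, and that of 9 neutrophil genes 11953, 101715, 704.6 and 206.6. That of 9 macrophage and dendritic cell genes was 25166, 33289, 802.4 and 5940. The stem cell receptor Kit stood at 82.9 and 55.8 on the day 3 arrays and at 3460 and 1263 on the DKmix arrays. The receptor gene Flt3 was below the floor on all 4 arrays. Of the other progenitor genes listed, Cd34 stood at 804.1, 111.8, 2069 and 4293 in the same order. Cd48 stood at 1105, 449.6, 655.7 and 34.0, and Slamf1 at 87.6, 5.6, 62.9 and 39.0. At day 3 the c-kit of the LSK label was thus close to the floor, and Ly6a (Sca-1) was not analysed here. In such bulk samples, fewer cells of a type and less RNA per cell cannot be told apart.

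At day 3, most respiratory chain genes were slightly lower with β-catenin than with eGFP. Of 87 members measured, 69 had a ratio below 1, and their median log2 ratio was −0.37, against −0.01 over 13365 genes measured. Few differed by 2-fold. There were 3 higher members (3.45%), where 10.2% of all genes were higher, and 2 lower members (2.30%), where 9.42% of all genes were lower. Complex medians were −0.36 for complex I, 0.11 for complex II, −0.27 for complex III, −0.62 for complex IV and −0.39 for complex V. On a scale set by spiked hybridisation controls in place of the arrays' mean intensity, the median of all genes was 0.32 and that of members 0.02, and the medians of complexes I, III and V were 0.01, 0.13 and 0.01. Those of complexes II and IV were 0.51 and −0.22. On that scale 8 members were higher and 0 lower. Of 48 cytosolic ribosomal protein genes measured, 44 had a ratio below 1 and the median was −0.39, so a shift of this size was also found outside mitochondria. That ribosomal median was −0.08 with quantile normalization and 0.01 on the hybridisation control scale. Proteasome subunits did not share the shift, with a median of 0.14, nor did mitochondrial ribosomal proteins, with 0.07.

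Complex IV, cytochrome c oxidase, moved most evenly at day 3: all 15 of its measured genes had a ratio below 1 by their brightest probe sets. Of all 13365 genes measured, 6781 did. For Cox4i2, at the floor, the log2 ratio was only −0.006. A second probe set of Cox8a gave 0.05, while those of the other complex IV genes that had one were below 0. Ndufv3, an accessory subunit beside the NADH-binding end of complex I, had 3766 with β-catenin and 8074 with eGFP, and then 7143 at DKmix day 50 and 6303 at day 300. It was 2.14-fold lower with β-catenin, and the β-catenin day 3 array stood below the other three. The heart and muscle isoform Cox6a2 was at least 2.12-fold lower, with 44.3 under the floor against 102.5, close to the floor on all arrays. Higher with β-catenin were the catalytic pair of the ATP synthase, Atp5b at 2.13-fold and Atp5a1 at 2.05-fold, and the complex I methyltransferase Ndufaf7 at least 4.32-fold, with 208.8 against 36.1. For Atp5a1 the call rested on the brightest probe set, since a second bright probe set gave a log2 ratio of −0.49 against 1.04.

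At DKmix day 50 the respiratory chain split by kind of subunit. Of 85 members measured, 14 were at least 2-fold higher than in β-catenin day 3 cells (16.5%) and 10 lower (11.8%), close to the shares of all genes, 16.1% higher and 15.7% lower. Among the 16 core subunits 5 were lower, 0 were higher and 14 had a ratio below 1, with a median log2 ratio of −0.84. Among 61 other subunits measured, 13 were higher and 3 lower, and their median was 0.39. The difference between the medians of core and other subunits was −1.22. This contrast was not planned and was tried after the data were seen, so the split is a description of these arrays only. The median of all members, 0.06, did not show this split and lay next to the 0.07 of all genes.

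By complex, the day 50 medians against β-catenin day 3 were −0.99 for complex II, −0.16 for complex III, 0.20 for complex I, 0.39 for complex V and 0.49 for complex IV, a spread of 1.48. Complex II, whose 4 genes are all core, lay lowest, and complex IV, with no core gene here, highest. Within complex I, 6 core subunits had a median of −0.77 and 29 other subunits 0.24. Within complex V, the 3 core subunits had −1.07 and the 14 others 0.51. Within complex III the gap was smaller, −0.43 for 3 core subunits and −0.14 for 5 others. On the hybridisation control scale, where the median of all genes was −0.70, complexes I, IV and V turned to −0.81, −0.20 and −0.55, other subunits to −0.53 and core subunits to −1.78, and 0 members were higher and 38 lower. The difference between core and other subunits was −1.25 on that scale. With quantile normalization complex I turned to −0.07 while core and other subunits were at −0.88 and 0.13.

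**Figure D1:**
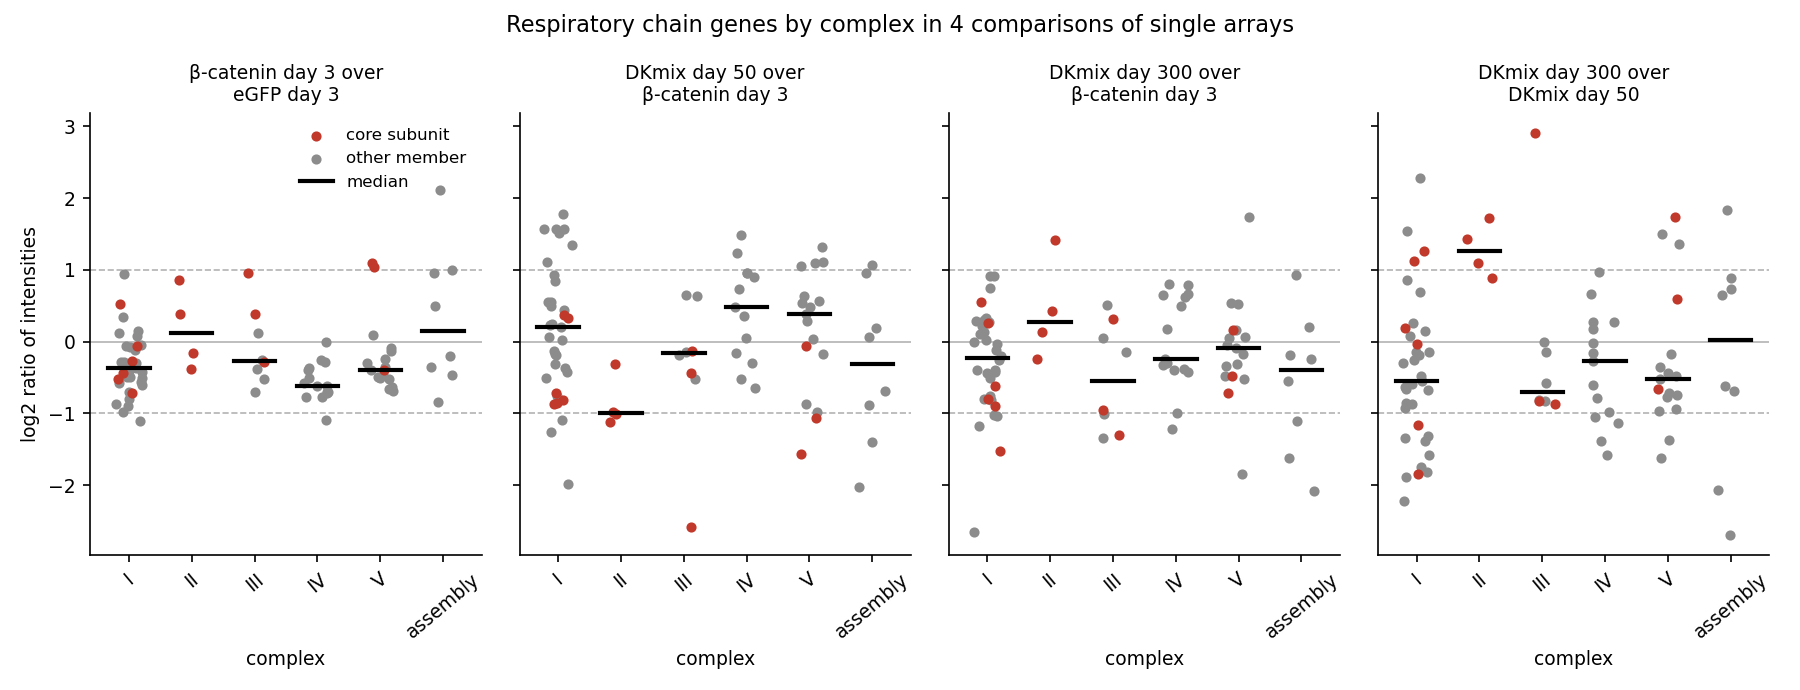
Log2 ratio of intensities of each measured respiratory chain gene (points; red, core subunits; grey, other members) by complex, with the median of each complex (bar), in 4 comparisons of single arrays; dashed lines mark 2-fold. At DKmix day 50 the 4 complex II genes lie below 0 with a median of −0.99, while the complex IV median is 0.49, and at DKmix day 300 over day 50 complex II lies at 1.27.

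Succinate dehydrogenase, complex II, is the only complex encoded wholly in the nucleus, and it also belongs to the citric acid cycle. Sdha, the flavoprotein that oxidises succinate, gave 2365 in β-catenin day 3, 1302 in eGFP day 3, 1088 at DKmix day 50 and 2005 at DKmix day 300. Sdhb, its iron-sulphur partner, gave 3149, 3527, 1604 and 3442 in the same order. Sdhd, a membrane anchor that binds ubiquinone, gave 1032, 786.5, 512.0 and 1384. By these probe sets, the day 50 array was the lowest of the 4 in all 3 genes, and day 300 returned to the range of day 3 or above it. Against β-catenin day 3, Sdha was 2.17-fold and Sdhd 2.02-fold lower at day 50, and Sdhb was 1.96-fold lower, just inside the 2-fold bound. Second probe sets gave smaller day 50 log2 ratios, −0.29 for Sdha and −0.20 for Sdhd.

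The other anchor, Sdhc, was highest at day 300. Its brighter probe set gave 376.3 in β-catenin day 3, 488.1 in eGFP day 3, 304.3 at day 50 and 999.3 at day 300. Day 300 stood 2.66-fold over β-catenin day 3 and 3.28-fold over day 50. At day 50 over β-catenin day 3 the brighter probe set gave a log2 ratio of −0.31 and the second 0.31. Both probe sets of Sdhc gave a day 300 over β-catenin day 3 log2 ratio of 1.41. Those of Sdhd did not match, with 0.42 from the brighter and −1.17 from the second, whose values lay between 66.3 and 186.8.

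Of complex III, the bc1 complex, the core gene Uqcrc1 had the lowest day 50 ratio of all members. It gave 1462 in β-catenin day 3, 757.0 in eGFP day 3, 244.0 at day 50 and 1827 at day 300. It was therefore 5.99-fold lower at day 50 than in β-catenin day 3 cells, 3.10-fold lower than with eGFP, and 7.49-fold higher again at day 300, with 1 probe set to read it. Uqcrc2, which forms the matrix-side core with Uqcrc1, gave 3308, 4023, 3027 and 1708 from its brighter probe set, lowest at day 300. Its second probe set gave 1863, 1989, 497.8 and 2128, low at day 50 only, so that the day 50 log2 ratios were −0.13 and −1.90. Uqcrfs1, the Rieske iron-sulphur protein that hands electrons to cytochrome c1, gave 3358, 2572, 2490 and 1361 and was 2.47-fold lower at day 300 than in β-catenin day 3 cells.

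Among the small subunits of complex III, Uqcrq gave 4690, 5622, 3271 and 1848 and was 2.54-fold lower at day 300 than in β-catenin day 3 cells. Uqcr10 gave 3672, 3385, 3220 and 1832, and just passed 2-fold. Day 300 was the lowest array for both. The hinge protein Uqcrh, which helps cytochrome c bind, gave 3086, 5023, 4847 and 4385, and Uqcrb 12238, 15999, 19006 and 12721. Neither passed 2-fold by these probe sets, nor did Uqcr11. A second probe set of Uqcrh gave 1734, 2341, 5675 and 5075, with log2 ratios over β-catenin day 3 of 1.71 at day 50 and 1.55 at day 300.

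The 3 core genes of the ATP synthase head did not move alike. Atp5b, the catalytic β subunit, gave 5041 in β-catenin day 3, 2367 in eGFP day 3, 1697 at day 50 and 5637 at day 300. Its order was that of Uqcrc1, high on the β-catenin day 3 and DKmix day 300 arrays and low on the other two, and day 50 was 2.97-fold below β-catenin day 3. Atp5a1, the α subunit, gave 6705, 3264, 3198 and 4824, and day 50 was 2.10-fold below β-catenin day 3 but equal to eGFP day 3 within 1.02-fold. A second probe set of Atp5a1 gave 2438, 3420, 3577 and 2079, with eGFP day 3 and day 50 above the other two. Atp5c1, the γ subunit that turns inside the head, gave 8789, 11576, 8403 and 5345 and passed 2-fold in none of the 4 comparisons.

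In the stalk and membrane part of the ATP synthase, 4 of 12 genes passed 2-fold upward at day 50 against β-catenin day 3 and 0 downward. These were 33.3% and 0%, against 16.1% and 15.7% of all genes. Atp5l, subunit g, gave 3361 in β-catenin day 3, 5194 in eGFP day 3, 8387 at day 50 and 3259 at day 300. Atp5h, subunit d of the stalk, gave 4021, 5658, 8586 and 2793. Both peaked at day 50 and were lowest at day 300 by these probe sets, while a second for Atp5h gave 3458, 4268, 5482 and 4767, with day 300 above both day 3 arrays. Atp5md and Atp5mpl, small proteins of the membrane part, gave 1123, 1603, 2338 and 1633, and 1999, 2136, 4304 and 2242. Their day 50 values were 2.08-fold and 2.15-fold above β-catenin day 3.

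The c-ring gene Atp5g1 and the stalk gene Atp5pb stood apart from these. Atp5g1, one of 3 genes for the same mature ring protein, gave 3566 in β-catenin day 3, 4668 in eGFP day 3, 1948 at day 50 and 996.5 at day 300. Both DKmix arrays lay below both day 3 arrays, by at least 1.83-fold, and day 300 was 3.58-fold below β-catenin day 3. The other ring genes passed 2-fold in none of the 4 comparisons: Atp5g2 gave 7014, 9948, 6202 and 5524, and Atp5g3 7097, 7802, 7260 and 5698. Atp5pb, subunit b, gave 2860, 2672, 3735 and 9548, the day 300 array standing 3.34-fold above β-catenin day 3 by this probe set and at a log2 ratio of 0.73 by a second. Atp5o, which joins stalk and head, gave 1686, 2163, 858.0 and 2437 and was lowest at day 50.

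In complex I the core subunits were mostly low at day 50. Ndufs1, which carries several iron-sulphur clusters, gave 1254 in β-catenin day 3, 1699 in eGFP day 3, 762.0 at day 50 and 1834 at day 300. Ndufv2, an iron-sulphur subunit of the NADH-binding module, gave 3729, 4507, 2056 and 4464. Both were lowest at day 50, and day 300 was 2.41-fold and 2.17-fold above day 50. For Ndufv2 a second probe set gave the opposite sign, a log2 ratio of 0.77 at day 50 over β-catenin day 3 against −0.86. Ndufv1, which binds NADH and the flavin, gave 1922, 2007, 1058 and 1032, so that both DKmix arrays lay at least 1.82-fold below both day 3 arrays. Another probe set of Ndufv1 gave 1076, 476.9, 317.7 and 1085, low at day 50 but not at day 300. Ndufs3 gave 2127, 1474, 1207 and 1381.

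The remaining core subunits, Ndufs7 and Ndufs8, hold the iron-sulphur clusters nearest to ubiquinone, and day 300 was the lowest array by their brightest probe sets. Ndufs7 gave 4976 in β-catenin day 3, 7105 in eGFP day 3, 6243 at day 50 and 1736 at day 300, which was 2.87-fold below β-catenin day 3 and 3.60-fold below day 50. Ndufs8 gave 4519, 7408, 5823 and 2597, and day 300 was 2.24-fold below day 50. Among the other probe sets of Ndufs8, 3 put day 50 lowest, such as 1 with 1627, 2063, 488.5 and 1123, and its log2 ratio of day 300 over day 50 was 1.20. The second probe set of Ndufs7 put both DKmix arrays low, at 1311 and 1441 against 2640 and 3224 at day 3. The log2 ratio of day 300 over day 50 was then 0.14, against −1.85 from the first.

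Of 29 accessory subunits of complex I measured, 7 were at least 2-fold higher at day 50 than in β-catenin day 3 cells. The 7 (24.1%, against 16.1% of all genes) were Ndufa1, Ndufa3, Ndufa4, Ndufa6, Ndufa13, Ndufb3 and Ndufb11. Ndufa1, a small membrane subunit needed for assembly, gave 3069 in β-catenin day 3, 4998 in eGFP day 3, 10514 at day 50 and 5792 at day 300, so that both DKmix arrays lay above both day 3 arrays, and day 50 stood 3.43-fold above β-catenin day 3. Ndufa13, also known as GRIM-19, gave 5945, 8791, 17630 and 4996 and was 2.97-fold higher at day 50. Ndufa6, a protein of the matrix arm, gave 1345, 2447, 3987 and 2526 and was 2.96-fold higher. All 7 had their highest intensity at day 50. For the small membrane subunit Ndufb11 the size depended on the probe set, with 5769, 8561, 16509 and 6320 from the brightest and 3340, 4766, 4088 and 2618 from another. Ndufa4, which is named for complex I but is now placed with complex IV, gave 1346, 1217, 2918 and 1170.

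Other accessory subunits of complex I were low at day 50, 3 of 29 by at least 2-fold (10.3%, against 15.7% of all genes). Ndufa9, which sits where the matrix arm meets the membrane, gave 806.4 in β-catenin day 3, 418.1 in eGFP day 3, 203.5 at day 50 and 992.4 at day 300. It was 3.96-fold lower at day 50 than in β-catenin day 3 cells and 4.88-fold higher at day 300 than at day 50, the course of Uqcrc1 and Atp5b. Each of these genes was read by 1 probe set. All were low on the eGFP day 3 and DKmix day 50 arrays, which had Gapdh 3′ to 5′ ratios of 4.14 and 4.96. The ratios of the other arrays were 1.18 and 1.06, and the part of array quality was not tested. Ndufb5 gave 1784, 2191, 743.1 and 2163, and Ndufab1, the mitochondrial acyl carrier protein, gave 3136, 2970, 1468 and 2375. They were 2.40-fold and 2.14-fold lower at day 50.

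The lowest day 300 ratio among members was that of Ndufb1, a small membrane subunit of complex I. It gave 541.5 in β-catenin day 3, 1067 in eGFP day 3, 402.3 at day 50 and 86.5 at day 300. Day 300 was 6.26-fold below β-catenin day 3 and 12.3-fold below eGFP day 3, with 1 probe set to read it. Ndufa5, Ndufa12 and Ndufc1 were also at least 2-fold lower at day 300 than in β-catenin day 3 cells, at log2 ratios of −1.04, −1.18 and −1.03. The second probe sets of Ndufa5 and Ndufc1 gave −0.45 and −0.03, and the second-brightest of Ndufa12 −0.83, all within 2-fold.

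**Figure D2:**
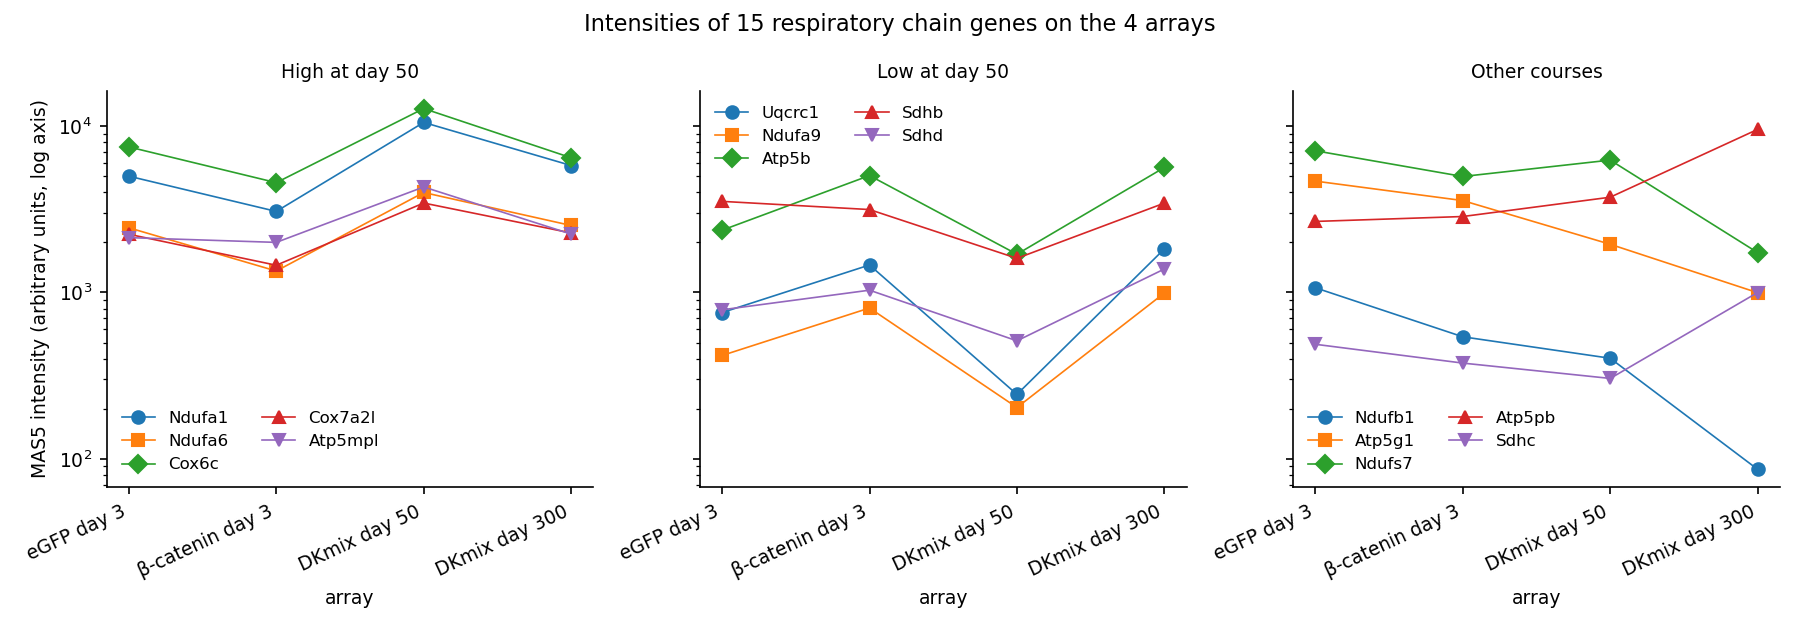
MAS5 intensity (log axis) of 15 respiratory chain genes on the 4 arrays, 1 array per group, joined by lines to follow each gene. Ndufa1 reaches 10514 at DKmix day 50, where Uqcrc1 has its lowest value of 244.0, and Ndufb1 is lowest at day 300 with 86.5; levels of different genes are not comparable.

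In complex IV, 2 of 13 genes measured passed 2-fold upward at day 50 and 0 downward (15.4% upward, near the 16.1% of all genes). Cox6c gave 4569 in β-catenin day 3, 7491 in eGFP day 3, 12741 at day 50 and 6448 at day 300. Day 50 was 2.79-fold above β-catenin day 3, and a second probe set gave nearly the same log2 ratio, 1.55 against 1.48. Cox7a2l, which helps join complexes III and IV into supercomplexes, gave 1457, 2238, 3446 and 2278, 2.36-fold higher at day 50. Cox4i1, the housekeeping form of the largest nuclear subunit, gave 8091, 10645, 6591 and 6482 and stayed within 2-fold. Cox5b gave 26368, 32164, 27321 and 13212, with day 300 lowest and 2.07-fold below day 50. Cox6a1, the ubiquitous form of its subunit, gave 15489, 20027, 25804 and 11790, and Cox6b1, likewise ubiquitous, 10960, 15570, 21353 and 8165. They were highest at day 50 and lowest at day 300, at log2 ratios of day 300 over day 50 of −1.13 and −1.39, but a second probe set gave 0.39 for Cox6a1 and −0.52 for Cox6b1.

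Tissue isoforms of complex IV were at or near the floor. The testis or muscle forms Cox7b2 and Cox8b were below 48.3 on all 4 arrays. The hypoxia-linked lung form Cox4i2 was between 12.7 and 54.5, Cox6a2 between 20.9 and 102.5, Cox8c between 9.70 and 94.7 and the muscle form Cox7a1 between 70.1 and 130.4. Cox6b2, a form known from testis, was clearly above the floor at 446.8 in β-catenin day 3, 765.6 in eGFP day 3, 285.4 at day 50 and 344.1 at day 300. Both DKmix arrays were lower than both day 3 arrays, by at least 1.30-fold. Of 5 striated muscle and 3 germ cell marker genes, at most 1 and 2 were above the floor on any array. Cox7c was read only by dim single-symbol probe sets, between 50.0 and 172.0 for the brighter one, so its 2.32-fold lower day 300 value has little signal behind it. Ndufb4 and the hypoxia-linked Ndufa4l2 were above the floor on 1 array each.

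The assembly factors of complex I, which build its arms and are not part of the finished enzyme, differed among themselves. Ndufaf4 gave 714.2 in β-catenin day 3, 915.1 in eGFP day 3, 1503 at day 50 and 232.4 at day 300, 2.10-fold higher at day 50 and 3.07-fold lower at day 300. Ndufaf8 gave 1370, 2443, 2656 and 633.9, and was likewise lowest at day 300. Ndufaf6 gave 269.8, 138.8, 102.7 and 63.9 and was 4.22-fold lower at day 300 than in β-catenin day 3 cells. Ndufaf5, which hydroxylates Ndufs7, was at least 4.05-fold lower at day 50, with 195.8 against 47.9 under the floor. For Ndufaf4 the day 50 call rested on the brighter probe set, the second giving a log2 ratio of −0.68.

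At DKmix day 300 the split between kinds of subunit was small. Against β-catenin day 3, 2 of 86 members were higher (2.33%), where 14.0% of all genes were higher, and 13 were lower (15.1%), where 14.4% of all genes were lower. The members' median log2 ratio was −0.20, against −0.08 for all genes. Core subunits had a median of −0.36 and other subunits −0.13, a difference of −0.22. Complex medians ran from −0.55 for complex III to 0.28 for complex II, a spread of 0.83. On the hybridisation control scale the median of all genes was −0.81, that of members −1.25 and that of complex II −0.77, with 0 members higher and 52 lower.

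Between the DKmix arrays the split came back in reverse. From day 50 to day 300, 12 of 87 members were higher (13.8%), where 15.1% of all genes were higher, and 18 were lower (20.7%), where 15.9% of all genes were lower. Core subunits had a median log2 ratio of 0.74, with 7 of 16 higher and 2 lower, and other subunits −0.58, with 4 of 63 higher and 14 lower. Complex II had the highest median, 1.27, and complex III the lowest, −0.70. This comparison shares the day 50 array with the one above, so it is not a second observation of the split.

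The 3′ to 5′ ratios of the arrays differed between the pairs compared. Core minus other subunits was −1.22 between day 50 and β-catenin day 3 (Gapdh ratios 4.96 and 1.18), 1.32 between day 300 and day 50 (1.06 and 4.96), and 0.45 between day 300 and eGFP day 3 (1.06 and 4.14). It was −0.22 between day 300 and β-catenin day 3 (1.06 and 1.18) and −0.36 between day 50 and eGFP day 3 (4.96 and 4.14). In that last pair all 16 core subunits had a ratio below 1 by their brightest probe sets, with a median of −0.47 against −0.11 for 64 other subunits. Of those 64, 38 had a ratio below 1, as had 6695 of 13820 genes measured. By 2-fold, 4 of the 16 were lower (25%, against 15% of all genes). Second probe sets gave 0.06 for Atp5a1, 0.22 for Ndufv2 and 0.25 for Sdhc. Those of the other core subunits that had one were below 0. Between β-catenin and eGFP at day 3 (1.18 and 4.14) the difference was 0.31. The widest differences were thus found where day 50 met an array of low ratio. By Gapdh and β-actin the 6 pairs ranked alike throughout: the higher the first array's ratio against the second's, the lower core minus other. The 6 pairs share the same 4 arrays, so they are not independent observations. By the transferrin receptor and pyruvate carboxylase the 6 pairs were not so ordered. The part of RNA or labelling quality in the split was not tested.

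**Figure D3:**
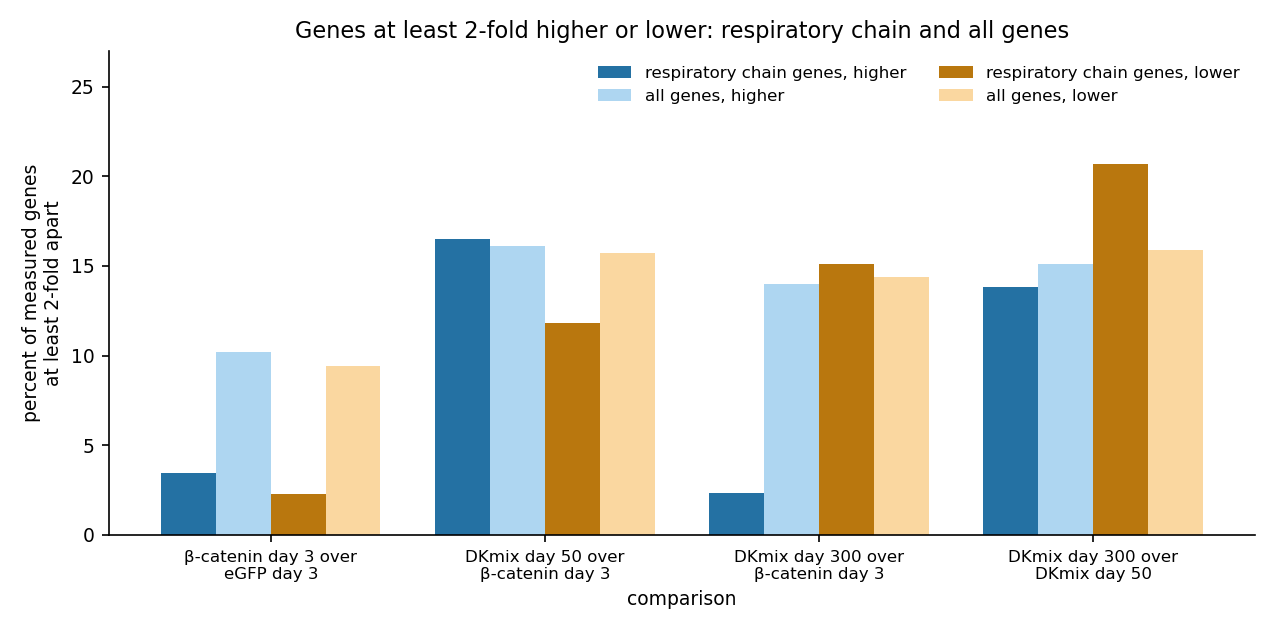
Percent of measured genes at least 2-fold higher (blue) or lower (orange) in 4 comparisons of single arrays, for respiratory chain genes (dark) and all genes (light). At DKmix day 50 members and all genes have like shares higher, 16.5% and 16.1%; at day 300 over β-catenin day 3 only 2.33% of members are higher, against 14.0%.

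No member was at least 2-fold above or below both day 3 arrays on both DKmix arrays, of 88 members measured. Over all genes 2.78% were above and 2.68% below by that rule. By any margin, 8 members lay above both day 3 arrays on both DKmix arrays (9.09%, against 15.5% of all genes), and 22 below (25%, against 16.8%). None of the 8 was a core subunit: they were Ndufa1, Ndufa6 and Ndufa10 of complex I, Cox7a2 and Cox7a2l of complex IV, and Atp5md, Atp5mpl and Atp5pb of complex V. Most margins were slight, the largest being 1.31-fold for Atp5pb. Among the 22 were 5 core subunits, with Ndufv1 at 1.82-fold by its brightest probe set, and the widest margins after Atp5g1 and Ndufv1 were those of Uqcrq, 1.43-fold, and Ndufaf6, 1.35-fold. Summed over the 90 genes, the respiratory chain took 4.51% of all gene intensity in β-catenin day 3, 5.14% in eGFP day 3, 5.11% at day 50 and 4.02% at day 300.

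Many single-gene ratios depended on the probe set. At day 50 over β-catenin day 3, 12 of 44 members with 2 measurable probe sets had ratios over 2-fold apart, and 15 had opposite signs. At day 300 over β-catenin day 3, 6 of 41 were over 2-fold apart, and at day 300 over day 50, 16 of 42. Of the 11 members past 2-fold at day 50 that had a second probe set, 9 kept their sign by it and 4 passed 2-fold by it too. At day 300 over β-catenin day 3, 7 of 7 kept their sign and 1 passed, and at day 300 over day 50, 10 of 16 kept it and 5 passed. At day 3, 0 of 1 kept it. Besides those given above, Ndufb9 had log2 ratios of 0.44 and −1.21 at day 50, Ndufb7 0.50 and −0.55, and Atp5d 0.54 and −1.03. From day 50 to day 300, Ndufb5 had 1.54 and −0.22, Atp5o 1.51 and 0.37, Ndufs4 0.87 and −0.69, and Ndufab1 0.69 and −0.53.

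**Figure D4:**
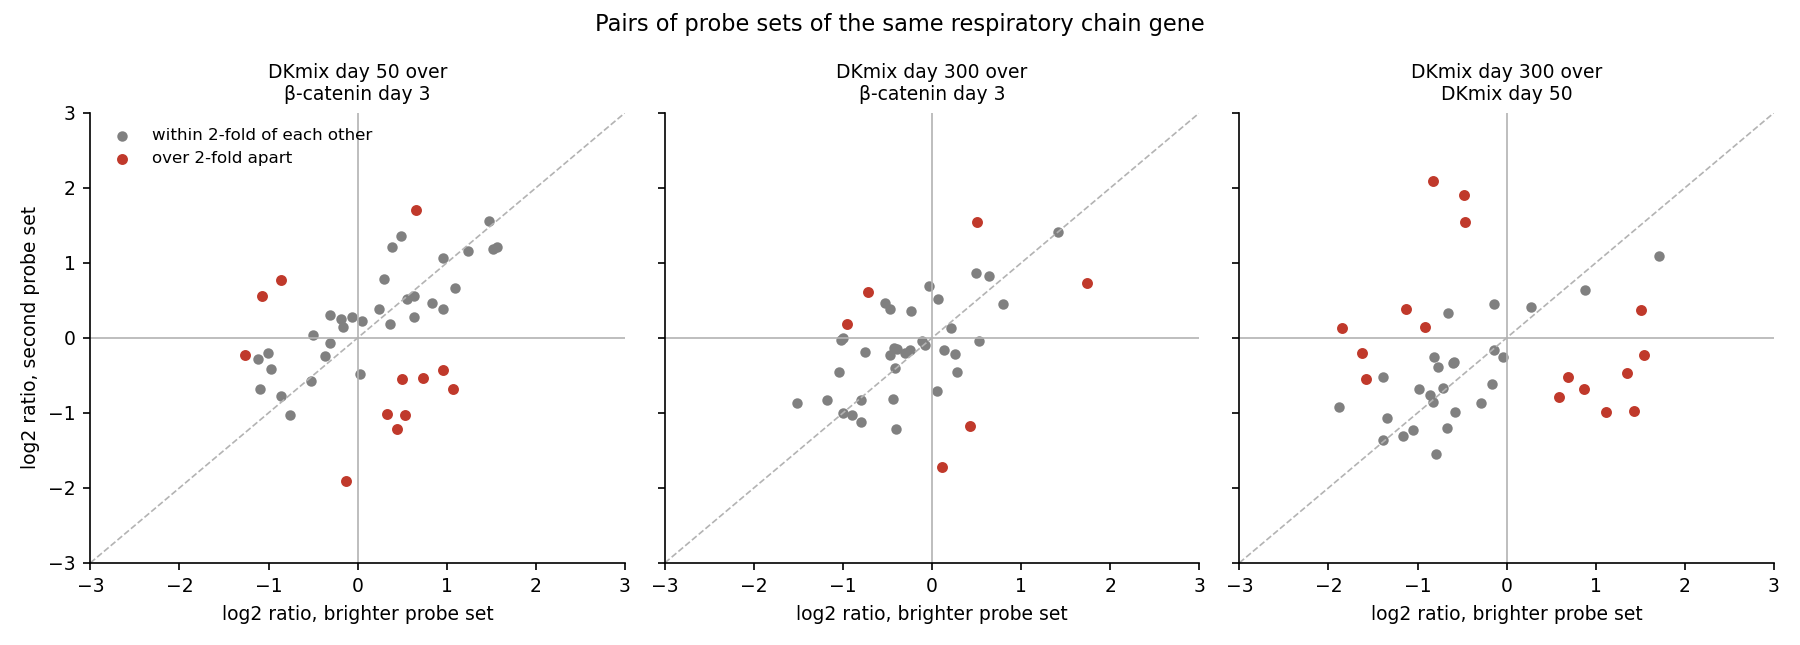
Log2 ratio of the brighter probe set (x axis) against the second probe set (y axis) of the same respiratory chain gene in 3 comparisons; red points are over 2-fold apart, and the dashed line marks equality. At DKmix day 50 over β-catenin day 3, 12 of 44 genes are red, and at day 300 over day 50, 16 of 42.

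Several groups of genes around the chain, though not all, were low at day 50. Of 19 genes of the citric acid cycle and pyruvate dehydrogenase, which feed the chain with electrons, 10 were at least 2-fold lower and 0 higher. Against β-catenin day 3 cells that was 52.6% lower, where 15.7% of all genes were lower, and the median log2 ratio was −1.04. At day 300, 0 of 20 passed 2-fold, where 14.0% of all genes were higher and 14.4% lower, and the median was −0.34. Pdk1, the kinase that shuts off pyruvate dehydrogenase, gave 582.6 in β-catenin day 3, 563.3 in eGFP day 3, 131.8 at day 50 and 526.3 at day 300. Pdha1, the subunit it acts on, gave 1534, 966.7, 452.7 and 1503, also lowest at day 50. The day 50 median was −1.97 on the hybridisation control scale and −1.23 with quantile normalization. Of 17 electron carriers and related genes outside the 5 complexes' symbols, 6 were lower at day 50 and 4 at day 300, and 0 were higher in either. The lower ones were 35.3% and 23.5%, against 15.7% and 14.4% of all genes. Cyc1, the cytochrome of complex III, gave 3606, 3767, 1545 and 2207, 2.33-fold lower at day 50.

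Mitochondrial ribosomal proteins, which translate the mitochondrially encoded subunits, were low on both DKmix arrays. Of 76 measured, 30 were 2-fold or more lower and 1 higher at day 50 than in β-catenin day 3 cells, and 29 lower and 1 higher at day 300, with a median log2 ratio of −0.80 in each. The lower ones were 39.5% and 38.2%, against 15.7% and 14.4% of all genes. Against eGFP day 3, 28 and 24 were lower (36.8% and 31.6%, against 15% and 15.8% of all genes) and 0 and 1 higher. Array quality differed between these arrays as given above, and its part was not tested. On the hybridisation control scale the medians were −1.74 and −1.84, and with quantile normalization −0.74 and −0.90. Of 23 mitochondrial import genes 9 were lower and 1 higher at day 50, and of 22 at day 300 5 were lower and 0 higher. That was 39.1% and 22.7% lower, against 15.7% and 14.4% of all genes. Of 33 assembly and expression factors of the chain outside the Ndufaf genes, 4 were higher and 6 lower at day 50. These shares, 12.1% and 18.2%, were near the 16.1% and 15.7% of all genes. Of 12 inner membrane carriers, porins and uncouplers measured, 1 was higher and 3 lower (8.33% and 25%), with a median of 0.02.

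Outside mitochondria, 40 proteasome subunits had a day 50 median of −1.19 against β-catenin day 3, with 23 lower and 0 higher, and −0.68 at day 300. The 23 were 57.5%, against 15.7% of all genes. Cytosolic ribosomal proteins had 0.22 at day 50 and −0.30 at day 300, and −0.71 between day 50 and day 300. With quantile normalization these were −0.20, −0.01 and −0.01, and on the hybridisation control scale −0.72, −1.34 and −0.81, so their direction at day 50 depends on the scale. On each of the 4 scales, core respiratory subunits, the citric acid cycle and the proteasome had medians between −2.15 and −0.84 at day 50 over β-catenin day 3. With eGFP day 3 as reference, on the main scale, these medians were −0.47, −0.80 and −0.86. The part of array quality in these groups was not tested.

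**Figure D5:**
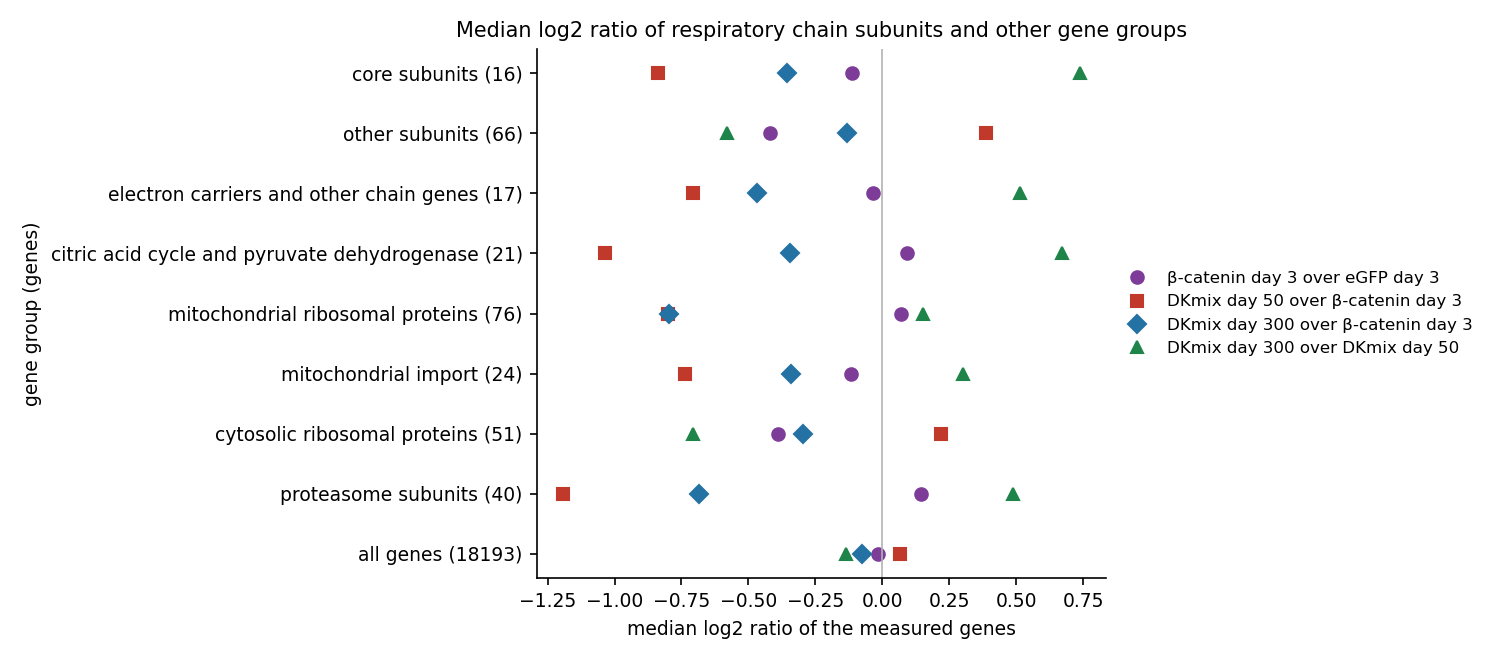
Median log2 ratio of the measured genes of each group (rows, with the number of genes in the group) in 4 comparisons of single arrays (symbols). Core subunits (−0.84) and other subunits (0.39) lie apart at DKmix day 50 over β-catenin day 3, and mitochondrial ribosomal proteins lie at −0.80 at both day 50 and day 300.

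Nuclear genes for the chain are known to be transcribed under NRF1, GABPA (NRF2), YY1 and the oestrogen-related receptor ERRα. Of 21 such regulators and mitochondrial DNA factors, 2 of 20 measured passed 2-fold upward and 4 downward at day 50 (10% and 20%, against 16.1% and 15.7% of all genes). At day 300, 1 of 21 passed upward and 4 downward (4.76% and 19%, against 14.0% and 14.4%). Tfam, which packs and transcribes mitochondrial DNA, gave 387.9 in β-catenin day 3, 277.9 in eGFP day 3, 212.6 at day 50 and 176.7 at day 300, 2.20-fold lower at day 300. Nrf1 gave 184.3, 190.4, 133.0 and 126.1, within 2-fold throughout. The coactivator Ppargc1a was under the floor on all arrays but DKmix day 300, at 69.7.

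Promoter windows, from 250 bases before to 50 bases after the start site (RefSeq, GRCm38.p6), were at hand for 74 members, and each was searched on both strands for 4 short motifs. GCGCATGC, a core of the NRF1 motif, was in 11 of them (14.9%), against 4.70% of 14368 array genes. AAGATGGCG, a YY1 motif, was in 7 (9.46%, against 2.54%), TCAAGGTCA, an ERRα motif, in 2 (2.70%, against 0.404%), and CCGGAAGT, a GABPA motif, in 5 (6.76%, against 6.65%). The 11 members with the NRF1 letters did not share a course at day 50, where 3 passed 2-fold upward and 2 downward, their median being −0.14, against 0.19 for 61 measured members without them. A match is a description of the letters, not of binding.

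The following windows are printed because they carry such letters in front of genes that went opposite ways at day 50: Uqcrc1 and Sdhb, which were low, and Ndufa6, which was high, with NRF1 letters in capitals, and Uqcrh, within 2-fold by 1 probe set and higher by another, with GABPA letters in capitals. They lie at chr9:108936398-108936697 on the plus strand (Uqcrc1), chr4:140961021-140961320 on the plus strand (Sdhb), chr15:82354242-82354541 on the minus strand (Ndufa6) and chr4:116075021-116075320 on the minus strand (Uqcrh), in GRCm38.p6, and are written 5′ to 3′ on the strand of the gene. The NRF1 letters begin 30 bases after the start site in Uqcrc1, where matches on both strands overlap, 54 bases before it in Sdhb and 83 bases before it in Ndufa6, and the GABPA letters 11 bases before it in Uqcrh.
Uqcrc1: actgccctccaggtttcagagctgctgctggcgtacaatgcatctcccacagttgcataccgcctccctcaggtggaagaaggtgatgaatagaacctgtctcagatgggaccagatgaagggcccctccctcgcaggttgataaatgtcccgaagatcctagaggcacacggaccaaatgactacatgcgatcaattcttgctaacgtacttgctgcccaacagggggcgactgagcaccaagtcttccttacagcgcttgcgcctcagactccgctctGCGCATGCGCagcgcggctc
Sdhb: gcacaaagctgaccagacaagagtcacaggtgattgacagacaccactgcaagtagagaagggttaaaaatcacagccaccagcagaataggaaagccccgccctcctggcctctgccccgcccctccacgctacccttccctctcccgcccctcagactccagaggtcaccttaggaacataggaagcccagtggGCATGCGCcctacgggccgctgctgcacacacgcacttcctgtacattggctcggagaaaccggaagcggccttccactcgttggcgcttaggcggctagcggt
Ndufa6: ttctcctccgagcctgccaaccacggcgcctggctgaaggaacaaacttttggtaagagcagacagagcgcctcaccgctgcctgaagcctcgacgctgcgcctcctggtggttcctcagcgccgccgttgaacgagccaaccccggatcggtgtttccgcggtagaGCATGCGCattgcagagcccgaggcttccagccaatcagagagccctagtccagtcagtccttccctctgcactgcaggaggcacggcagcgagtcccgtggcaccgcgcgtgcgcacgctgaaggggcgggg
Uqcrh: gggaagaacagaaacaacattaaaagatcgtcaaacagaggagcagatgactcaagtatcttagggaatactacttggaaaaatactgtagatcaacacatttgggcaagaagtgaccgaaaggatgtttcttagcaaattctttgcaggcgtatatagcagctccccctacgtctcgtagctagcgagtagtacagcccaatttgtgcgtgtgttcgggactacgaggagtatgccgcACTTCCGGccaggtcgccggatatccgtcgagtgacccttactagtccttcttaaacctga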

How the data were processed

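RNA of 4 samples was measured on 1 array each. The deposited values were linear intensities per probe set, which the authors computed in MAS5, as the submitters' processing notes name it. Its version is not given in the sources used here, and the deposited intensities had a trimmed mean of 150 on each array (2% left out at either end) and were used as they stood. Of 45101 probe sets, 34945 had 1 gene symbol in the platform table, 932 several and 9160 none, besides 64 controls. Where a gene had several, the one brightest on average (log2) stood for it. Intensities under 48.3, the pooled median, were set to it. A ratio with 1 array at that floor is written "at least", and genes with both arrays there were left out of that comparison. The 4 comparisons, and both DKmix arrays over eGFP day 3, were counted at 2-fold with no test, and the counting was checked on simulated data. Alternatives were quantile normalization, centring on the median of all genes, a scale from 9 hybridisation control probe sets, floors of 11.0, 134.6 or none (pseudocount 1), the mean of all probe sets, only plain probe set IDs, 1.5-fold and 3-fold, and the members without assembly factors. Members, gene lists and the rule for named genes (from members past 2-fold, core subunits, isoforms and members with discordant probe sets) were chosen with earlier results of these data known, and the members plotted and promoters printed after their values were seen. Python 3.11.15, pandas 2.3.3 and numpy 2.4.6 were used.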

Additional observations from a re-analysis of the deposited data

How the results depend on the processing

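The medians of members were most open to the scale between arrays. In the order β-catenin over eGFP, day 50 and day 300 over β-catenin, and day 300 over day 50, the hybridisation control scale gave 0.022, −0.87 and −1.25 for the first 3, and counts higher/lower of 8 and 0, 0 and 38, and 0 and 52. Of all genes past 2-fold, 80.8%, 9.99% and 8.61% were then higher, against 52.0%, 50.5% and 49.2%. That scale put 14 members at least 2-fold below both day 3 arrays on both DKmix arrays, and turned the day 50 medians of complexes I and V to −0.81 and −0.55. Quantile normalization gave medians of −0.18, −0.11 and −0.21 for the first, second and last comparison, 7 higher at day 50, 1 lower at day 3 and 1 below on both DKmix arrays, and centring gave −0.34 for the last. With eGFP as reference the medians were −0.17 at day 50 and −0.45 at day 300. Core minus other subunits, in every comparison tried only after seeing the data, was then −0.36 and, reversed, 0.45.

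Only plain probe set IDs gave medians of −0.14, −0.071 and −0.18 for the last 3 comparisons, −0.37 for complex I at day 50, 0.82 for core minus other at day 3, 4 higher and 7 lower at day 300, 7 lower from day 50 to day 300 and 1 above on both DKmix arrays. They reversed Ndufa12 (1.38), Uqcr10 (1.05) and Uqcrq (0.13) at day 300 over β-catenin day 3, and Cox5b (0.10), Ndufs7 (0.14) and Ndufs8 (1.20) over day 50. The mean of all probe sets gave −0.35 and 7 higher from day 50 to day 300, 0.88 for core minus other there and 8 lower at day 300, and reversed Atp5a1 (−0.15 at day 3, 0.074 at day 50), Ndufv2 (−0.047, day 300 over day 50) and Uqcr10 (0.014 at day 300). At 1.5-fold the 4 comparisons had 8, 24, 11 and 21 higher and 21, 21, 22 and 40 lower, with 2 below on both DKmix arrays, and at 3-fold 1, 1, 1 and 5 higher and 0, 3, 4 and 8 lower. The lower floor gave 4 higher at day 300 and 1 above on both DKmix arrays, no floor 5 and 2, and the higher floor 1 lower at day 3. The cause was not tested. In 165 of 220 comparisons of a main value with an alternative, it stayed within 1.5 times for counts or within the probe-set error for medians. Some of the 220 could not move. Centring and leaving out the assembly factors cannot change the spread between complexes or core minus other subunits. The share is therefore no measure of how stable the results were. With 1 array per group no replicate could be left out. No paired analysis was possible because each group holds 1 array.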
